A study of Macaca mulatta with 8 samples.

Results

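The genes NFIA, NFIB, NFIC and NFIX encode the nuclear factor I (NFI) transcription factors, and their chromatin was followed in cortex cells of the rhesus macaque. Each locus spanned the gene body plus 5 kb upstream, taken from NCBI's gene models of the Mmul_10 assembly (rheMac10). The loci held 90 of the 72358 regions in which a peak was called at 1 or more stages. NFIA had 28 of them, NFIB 17, NFIC 16 and NFIX 29. All 4 genes were found, and all had regions.

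NFI proteins bind DNA as dimers, at a palindrome whose arms read TTGGC and GCCAA. NFIA, NFIB and NFIX are made in radial glia, the stem cells of the developing cortex, and in astrocytes. In mice they are needed for radial glia to move from making neurons to making glia, and SOX9 induces NFIA at the onset of gliogenesis. NFIC is made in many tissues and is best known for its part in tooth root formation.

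Open chromatin was profiled with bulk ATAC-seq: the transposase Tn5 cuts accessible DNA, and a peak is a stretch with many cuts. The 4 groups were cortex cells of post-conceptional days 50, 60, 80 and 85, called E50, E60, E80 and E85. All came from cryopreserved rhesus tissue that was dissociated with papain and grown as a monolayer on a laminin coat, in a medium that enriches progenitors. The medium held FGF2, EGF, BDNF, albumin, insulin, transferrin, selenium, ascorbic acid, lipids, nucleosides and the antimicrobial Primocin, with the survival cocktail CEPT at plating. No genetic change or drug comparison was part of the design, and the labels give neither the strain nor the number of animals. Each stage was 1 culture, from which 2 technical libraries of 100000 cells were made, so stage differences lack a replicate check and no test between stages was made. The study as a whole concerns HAQERs, segments of the human genome that changed quickly, which were not analysed here.

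The unit is the merged region of the authors' table, which lists by name the peaks it was made from. A region was called at a stage if it held a peak of that stage. The sets differed in size: E60 had 61956 peaks and E80 60278, against 19833 for E50 and 30701 for E85. Fewer calls at E50 or E85 therefore cannot be told apart from a smaller set. Of the marker genes of cortical progenitors, 9 of 9 had a promoter call at every stage, SOX2 and PAX6 among them, while 0 of 4 microglial genes had one at any stage. Astrocyte genes had one for 3 of 4 at every stage, and oligodendrocyte lineage genes for 2 of 4 at E50 and 3 of 4 at the later stages. Over all protein-coding genes E60 had a promoter call for 64.7%, E80 for 63.2%, E85 for 53.0% and E50 for 44.3%. Mural and mesenchymal genes had a promoter call for 1 of 5 at E50 and 2 of 5 at the other stages. Endothelial genes had one for 1 of 4 at E60 and at E80. Interneuron genes had one for 4 of 4 at E60 and at E80 and 2 of 4 at E50 and E85.

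The DNA just upstream of the genes is shown first, because their promoters differed in the stages at which they were called. Each sequence gives the 200 bases before the gene start, 5′ to 3′ on the gene's strand, with CpG dinucleotides in capitals. They lie at chr1:163372065-163372264 (NFIA, minus strand), chr15:69272240-69272439 (NFIB), chr19:3242594-3242793 (NFIC) and chr19:12586039-12586238 (NFIX) of rheMac10, the last 3 on the plus strand.
NFIA upstream: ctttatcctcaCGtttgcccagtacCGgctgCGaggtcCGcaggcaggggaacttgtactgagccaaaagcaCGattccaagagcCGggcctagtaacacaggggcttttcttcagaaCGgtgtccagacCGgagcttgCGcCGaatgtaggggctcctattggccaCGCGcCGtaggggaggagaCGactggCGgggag
NFIB upstream: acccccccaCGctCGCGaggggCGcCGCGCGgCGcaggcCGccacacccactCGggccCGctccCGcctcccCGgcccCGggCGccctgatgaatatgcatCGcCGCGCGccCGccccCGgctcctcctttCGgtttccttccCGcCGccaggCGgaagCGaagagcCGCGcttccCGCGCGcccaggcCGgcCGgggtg
NFIC upstream: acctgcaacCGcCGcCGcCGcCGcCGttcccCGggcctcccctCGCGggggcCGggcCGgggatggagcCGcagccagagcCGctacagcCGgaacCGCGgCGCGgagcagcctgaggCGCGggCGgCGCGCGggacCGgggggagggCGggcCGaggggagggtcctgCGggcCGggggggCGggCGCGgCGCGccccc
NFIX upstream: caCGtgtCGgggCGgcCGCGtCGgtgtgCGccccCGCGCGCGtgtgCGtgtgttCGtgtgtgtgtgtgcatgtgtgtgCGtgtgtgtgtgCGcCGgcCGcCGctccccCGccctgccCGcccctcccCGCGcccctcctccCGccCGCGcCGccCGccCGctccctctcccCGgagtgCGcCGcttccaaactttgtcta
The NFIA stretch held 15 CpG dinucleotides, and those of NFIB, NFIC and NFIX held 33, 34 and 31. Their GC content was 60.5% at NFIA, 79.5% at NFIB, 85.5% at NFIC and 75.5% at NFIX.

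Regions called at E60 alone are shown next, because this class made up much of the NFIA, NFIB and NFIX loci. Capitals mark motifs on either strand. The NFIA stretch (chr1:163316540-163316739, minus strand) is the central 200 bases of the widest such region of its locus and holds the NFI motif TTGGCA. The NFIB stretch (chr15:69323003-69323202, plus strand) holds the same motif on the other strand and comes from the widest such region in an intron there. The NFIX stretch (chr19:12607189-12607388, plus strand) comes from the widest such intron region of NFIX and holds none of the motifs. The only E60-alone region of NFIC (chr19:3241678-3241909, plus strand) is given whole, and holds an E-box CAGCTG and a MEIS motif TGACAG, read here as CTGTCA. A further NFIA region (chr1:163314730-163314935, minus strand), also whole, holds the AP-1 motif TGACTCA, read here as TGAGTCA.
NFIA intron, E60 alone: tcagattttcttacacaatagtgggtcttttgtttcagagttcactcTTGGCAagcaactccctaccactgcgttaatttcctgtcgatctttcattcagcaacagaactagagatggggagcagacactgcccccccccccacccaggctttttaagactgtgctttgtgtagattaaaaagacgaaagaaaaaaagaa
NFIB intron, E60 alone: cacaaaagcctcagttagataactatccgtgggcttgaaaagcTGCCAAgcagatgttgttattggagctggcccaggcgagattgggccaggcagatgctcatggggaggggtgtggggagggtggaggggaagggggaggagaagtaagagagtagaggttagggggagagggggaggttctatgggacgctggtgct
NFIX intron, E60 alone: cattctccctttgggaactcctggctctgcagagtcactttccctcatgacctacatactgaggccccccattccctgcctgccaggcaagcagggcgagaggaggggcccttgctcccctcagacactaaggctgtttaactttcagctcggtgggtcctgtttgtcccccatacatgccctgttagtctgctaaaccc
NFIC upstream, E60 alone: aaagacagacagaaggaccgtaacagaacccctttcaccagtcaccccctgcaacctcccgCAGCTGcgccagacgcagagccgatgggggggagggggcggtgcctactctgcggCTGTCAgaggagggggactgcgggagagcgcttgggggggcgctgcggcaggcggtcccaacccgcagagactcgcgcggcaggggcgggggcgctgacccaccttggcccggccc
NFIA intron with AP-1, E60 alone: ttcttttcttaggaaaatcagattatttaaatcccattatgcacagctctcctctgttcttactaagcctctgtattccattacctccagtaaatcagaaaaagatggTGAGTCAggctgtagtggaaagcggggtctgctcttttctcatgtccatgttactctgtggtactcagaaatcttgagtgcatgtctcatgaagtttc

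Nearly every NFI region was called at E60, and fewer were called at E80. Of the 90 regions, 89 were called at E60 (98.9%, exact Clopper-Pearson 95% interval 94.0 to 100), against 82.8% of all regions. At E80 60 were called (66.7%, interval 55.9 to 76.3), against 80.3% of all regions. At E50 22 were called (24.4%, interval 16.0 to 34.6), against 26.0%, and at E85 34 (37.8%, interval 27.8 to 48.6), against 40.1%. The share was above that of all regions at E60 and below it at E80, and near it at E50 and E85. The lean of these loci to E60 over E80 was known when the genes were chosen, so these counts and those below are a description. Intervals cover counting error alone, and treat regions of 1 locus as independent, which they are not.

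The share called at E80 ran from 52.9% to 87.5% over the genes, with overlapping intervals. Of the NFIA regions, E50 called 8, E60 27, E80 17 and E85 10. NFIB had 3, 17, 9 and 6 at these stages. NFIC, the member outside the glial trio, had 4, 16, 14 and 7. NFIX had 7, 29, 20 and 11. At E80 the share called was 52.9% at NFIB, 60.7% at NFIA, 69.0% at NFIX and 87.5% at NFIC. The intervals were 27.8 to 77.0, 40.6 to 78.5, 49.2 to 84.7 and 61.7 to 98.4 in this order, so that even its ends overlapped.

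**Figure D1:**
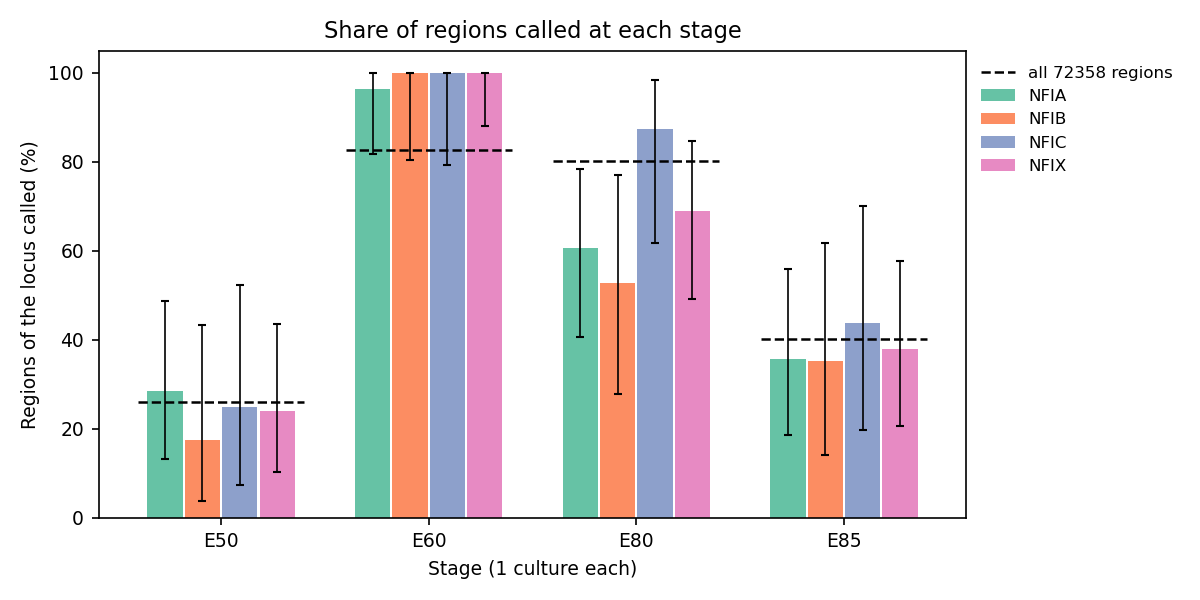
Share of the regions of each NFI locus called at E50, E60, E80 and E85 (bars, %), with exact 95% intervals over regions, and the share over all 72358 regions (dashed lines). At E60 all 4 bars stand above the line, at E80 NFIA, NFIB and NFIX stand below it and NFIC above, and at E50 and E85 every interval includes it.

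Early-only regions, with a call at E50, E60 or both but none later, numbered 28 of 90 (31.1%, interval 21.8 to 41.7), against 16.8% of all regions. All 28 were called at E60 alone, a class that holds 16.4% of all regions. Late-only regions, with a call at E80, E85 or both but none earlier, numbered 0 of 90 (interval up to 4.02%), against 15.6% of all regions. Between E60 and E80 alone, 30 NFI regions were called at E60 and not E80, against 17.4% of all regions, and 1 was called at E80 and not E60, against 14.9%. The class called at E80 alone, 13.3% of all regions, had no member at an NFI locus. These counts rested on the E60 culture: without it no NFI region was early-only and 40 were late-only, against 0.410% and 57.6% of all regions.

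Marker lists were read against the same shares of all regions, 16.8% early-only and 15.6% late-only. Genes of intermediate progenitors and neurons held 8 early-only regions and 1 late-only region among 28, and interneuron genes 11 and 0 among 25. Progenitor genes held 7 and 2 among 49, and oligodendrocyte lineage genes 2 and 0 among 10. Astrocyte genes held 2 and 2 among 14, endothelial genes 1 and 2 among 8, and microglial, mural and mesenchymal genes none of either kind. Promoters were called at E50, E60, E80 and E85 for 1, 6, 5 and 2 of the 8 genes of intermediate progenitors and neurons. Over all protein-coding genes the shares at these stages were 44.3%, 64.7%, 63.2% and 53.0%. The share of each cell type in the cultures was not measured, and its part in the NFI calls was not tested.

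E60-alone regions were present at all 4 genes. NFIA had 11 such regions (39.3% of its regions, interval 21.5 to 59.4), NFIB 7 (41.2%, interval 18.4 to 67.1) and NFIX 9 (31.0%, interval 15.3 to 50.8). NFIC had 1 (6.25%, interval 0.158 to 30.2). NFIC was instead richest in regions called at E60 and E80 alone, with 8 of 16 (50.0%), against 29.4% of all regions. That class held 7 regions at NFIA, 4 at NFIB and 9 at NFIX. The intervals of NFIC overlapped those of the other genes in both classes, and the difference between NFIC and the rest was not tested.

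**Figure D2:**
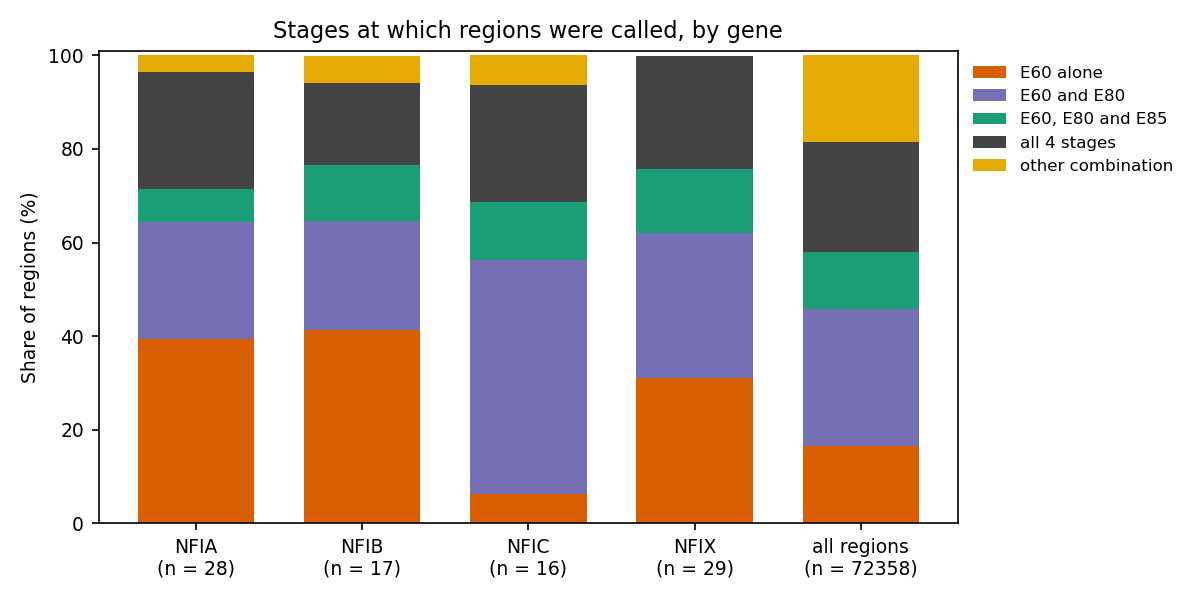
Combination of stages at which the regions of each NFI locus were called, as a share of its regions (%), beside all 72358 regions. E60-alone regions make up 31.0% to 41.2% of NFIA, NFIB and NFIX, 6.25% of NFIC and 16.4% of all regions.

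A core of regions was called at all stages. It numbered 21 of 90 (23.3%, interval 15.1 to 33.4), close to the 23.5% of all regions, with 7 at NFIA, 3 at NFIB, 4 at NFIC and 7 at NFIX. A further 10 were called at E60, E80 and E85 (11.1%, against 12.1% of all regions). Only 3 regions had another combination. Those of NFIB (chr15:69319731-69320885) and NFIC (chr19:3279580-3279853) were called at E60 and E85 alone, a class that holds 0.580% of all regions. The remaining one, in an NFIA intron 114 kb from the gene start (chr1:163258000-163259069), was 1070 bp wide and was called at E50, E80 and E85 and not at E60, as were 0.533% of all regions. It was singled out after its values were seen, since E60 was the largest set, and its central 200 bases (chr1:163258434-163258633, minus strand) held none of the motifs.
NFIA intron, E50, E80 and E85: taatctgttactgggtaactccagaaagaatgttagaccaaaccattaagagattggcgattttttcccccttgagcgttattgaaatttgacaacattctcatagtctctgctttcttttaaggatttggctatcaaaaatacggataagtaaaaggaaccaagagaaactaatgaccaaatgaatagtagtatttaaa

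Promoters came next, meaning regions within 1000 bp of an annotated transcription start. They numbered 15 of the 90 NFI regions, against 23.2% of all regions. All 15 were called at E60, against 94.2% of all promoter regions, and 13 at E80 (86.7%, interval 59.5 to 98.3, against 90.1%). At E50 6 were called (40.0%, interval 16.3 to 67.7, against 53.7%), and at E85 the same number (against 67.7%).

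The genes differed in which of their starts had a call. NFIA, on the minus strand of chromosome 1 from 162988663 to 163372064, has 4 annotated starts. Its 3 promoter regions, 824, 524 and 2532 bp wide, were called at all stages, and the widest spanned the 3 inner starts, 4748 to 5189 bp into the gene. NFIB, on chromosome 15 from 69272440 to 69513341, has 14 starts in separate clusters. Its outermost start and the cluster 8450 to 8935 bp into the gene had calls at all 4 stages, the latter in a region 4692 bp wide, the widest at any NFI locus. The next cluster, 14154 to 15007 bp into the gene, had calls at E60 and E80 alone. The last start, 143796 bp in, had no call within 1000 bp at any stage.

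The remaining genes lie on chromosome 19. NFIC, from 3242794 to 3354730, had calls at all 4 of its starts at E60 and E80, and none at E50 or E85. NFIX, from 12586239 to 12689842, had calls at its outer starts at E60 and E80 alone. Its inner starts, 28670 and 29750 bp into the gene, which serve 8 of its 11 annotated transcripts, lay by a region 1883 bp wide that was called at all stages. So NFIC was the only member without a promoter call at E50 and E85, stages with one for 44.3% and 53.0% of all protein-coding genes. At E60 and E80 all 4 NFI genes had one, against 64.7% and 63.2% of all protein-coding genes. The GC content of the 6 NFI promoter regions called at all stages was 42.7% to 64.3%, within the 36.1% to 75.3% of the 9 others.

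**Figure D3:**
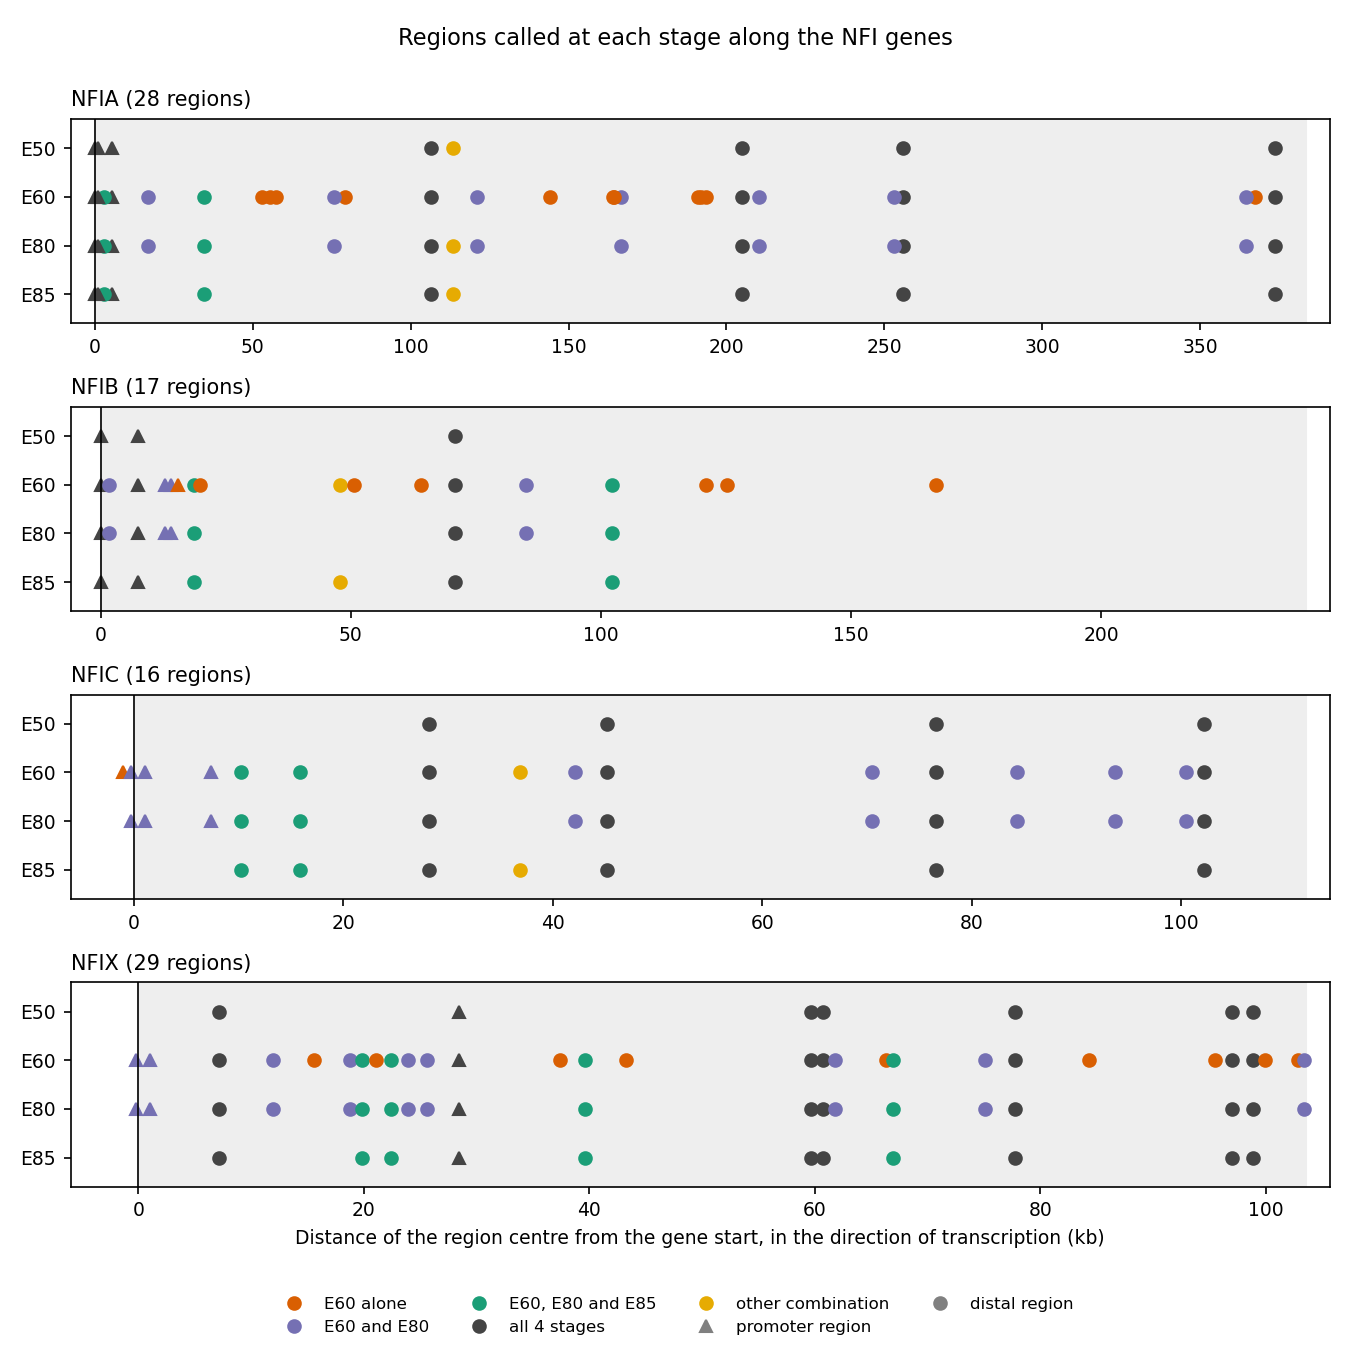
Centres of the regions called at each stage along the NFI genes, by distance from the gene start in the direction of transcription (kb), with the gene body shaded. Triangles are promoter regions, circles are distal regions, and colours give the combination of stages. E60-alone regions of NFIA begin 53.1 kb into the gene, while those of NFIX lie from 15.6 to 103 kb.

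Most of the E60-alone NFI regions were distal, 26 of 28 (92.9%), as were 89.4% of all E60-alone regions. Of the 75 distal NFI regions, 74 were called at E60 (98.7%, against 79.4% of all distal regions) and 47 at E80 (62.7%, interval 50.7 to 73.6, against 77.4%). The E60-alone class made up 34.7% of them (interval 24.0 to 46.5, against 19.0%). At NFIC 11 of 12 distal regions were called at E80, at NFIX 17 of 26, at NFIA 14 of 25 and at NFIB 5 of 12.

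The E60-alone regions lay in introns about as often as NFI regions in general. By annotation 24 of the 28 were in introns (85.7%, against 82.2% of all 90), 1 overlapped a coding exon, 2 overlapped UTR exons and 1 lay upstream of its gene. At NFIA they lay 53.1, 55.4, 57.2, 79.3, 144, 164, 165, 191, 192, 194 and 368 kb from the gene start, all in introns. At NFIB the distances were 15.5, 19.9, 50.7, 64.0, 121, 125 and 167 kb, and the nearest overlapped a coding exon beside a start. The NFIX distances were 15.6, 21.1, 37.4, 43.3, 66.3, 84.4, 95.5, 99.9 and 103 kb, the farthest pair over UTR exons. The NFIC region lay 1.00 kb upstream. The nearest region called at E80 was 103 to 64302 bp away, with a median of 3184 bp, against 9625 bp for all E60-alone regions. Of the 28, 8 had an E80 region within 1000 bp (28.6%, interval 13.2 to 48.7), against 13.4% of all E60-alone regions. These gaps were 103, 118, 162, 316 and 361 bp at NFIX, 155 and 311 bp at NFIB and 273 bp at NFIC. At NFIA the smallest gap was 1628 bp. These loci hold many regions, and density was not adjusted for.

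The loci were packed to very different degrees. NFIX held 26.7 regions per 100 kb and NFIC 13.7, against 7.21 at NFIA and 6.91 at NFIB. Regions covered 21.4% of the NFIX locus, 11.1% of NFIC, 7.12% of NFIB and 4.73% of NFIA. The 2 genes of chromosome 19 were also GC-richer: the median GC content of regions was 64.6% at NFIC and 61.5% at NFIX, against 42.7% at NFIA and 43.8% at NFIB.

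A merged region spans all the peaks it holds, lifted ones included, so regions of more stages can be wider by construction alone. The median width was 350 bp for E60-alone NFI regions (206 to 924), 626 bp for those of E60 and E80 (213 to 1752), 698 bp for those of E60, E80 and E85 (306 to 1446) and 1234 bp for those of all stages (287 to 4692). The same medians over all regions were 346, 431, 557 and 1006 bp. E60-alone regions of NFI genes were thus of ordinary width, and those shared by E60 and E80 were wider than the median of their class. The ranges of the 4 classes overlapped.

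**Figure D4:**
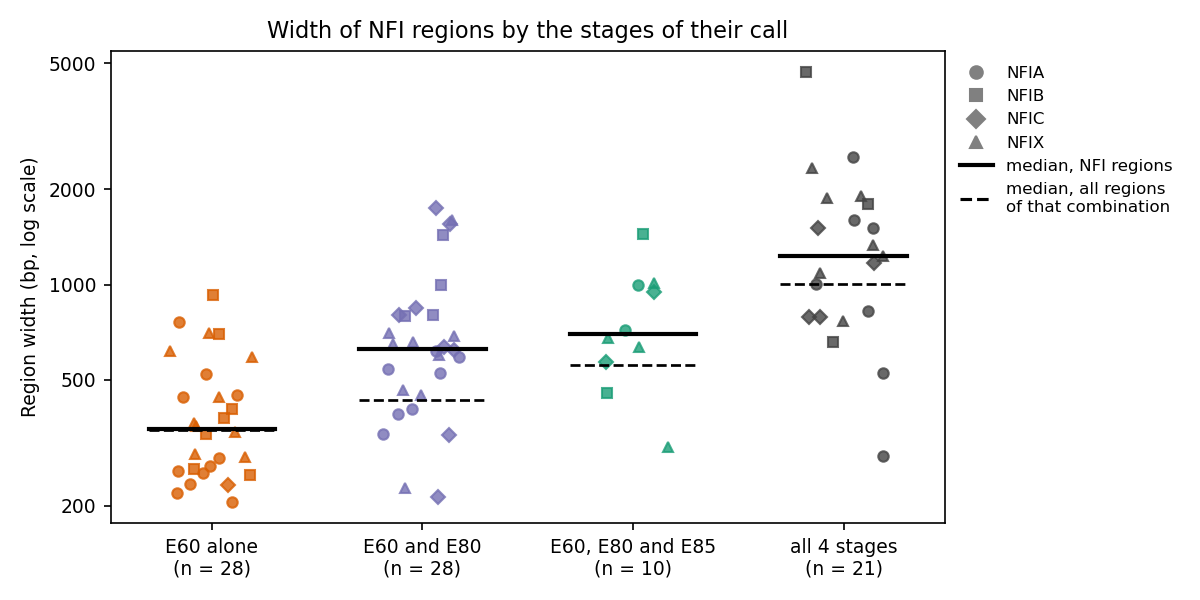
Width of each NFI region (bp, log axis) by the combination of stages, with the median of NFI regions (solid line) and of all regions of that combination (dashed line). Medians of NFI regions climb from 350 bp for E60 alone to 1234 bp for all stages, and the solid and dashed lines nearly coincide for E60 alone.

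Many NFI regions coincided with lifted peaks, which come from 4 further sets that the labels do not define. Such a peak was present in 73 of 90 NFI regions (81.1%, interval 71.5 to 88.6), against 63.3% of all regions. The share was 24 of 28 at NFIA, 15 of 17 at NFIB, 24 of 29 at NFIX and 10 of 16 at NFIC. Among E60-alone NFI regions 18 of 28 held one (64.3%, interval 44.1 to 81.4), against 50.7% of all E60-alone regions. Among those of E60 and E80 it was 23 of 28, against 61.0%, among those of E60, E80 and E85 10 of 10, against 77.8%, and among those of all stages 20 of 21, against 89.8%.

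Motifs were searched on both strands within 150 bp of the centre of each region, a window that runs past the ends of narrow regions. The NFI motif TTGGCA was in 27 of 90 NFI windows (30.0%, interval 20.8 to 40.6), against 20.2% of all windows. It was in 11 of 28 E60-alone windows (39.3%, interval 21.5 to 59.4), against 25.7% of that class. By gene it was in 8 of 28 windows at NFIA, 7 of 17 at NFIB, 3 of 16 at NFIC and 9 of 29 at NFIX. The full palindrome, TTGGC and GCCAA with 5 bases between them, can include TTGGCA. It was in no NFI window, against 0.0802% of all. Searched over whole regions it was in 1 NFI region, in an NFIA intron 106 kb from the start that was called at all stages (chr1:163264800-163266395), against 0.130% of all regions. The 115 bases around it (chr1:163265159-163265273, minus strand) are shown with the palindrome in capitals.
NFIA intron with the NFI palindrome: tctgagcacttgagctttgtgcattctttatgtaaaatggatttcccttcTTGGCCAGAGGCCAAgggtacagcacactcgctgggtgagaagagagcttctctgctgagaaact

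The AP-1 motif TGACTCA was in 13 of 90 NFI windows (14.4%, interval 7.92 to 23.4), against 21.1% of all windows. It was in 5 of 28 E60-alone windows (17.9%, interval 6.06 to 36.9), against 10.9% of that class, and in 43.0% of windows called at E80 alone, a class these loci lacked. The homeobox motif TAATTA was in 6 windows (6.67%, against 8.29% of all), the E-box CAGCTG in 15 (16.7%, against 24.4%) and the MEIS motif TGACAG in 17 (18.9%, against 18.2%). The TEAD motif ACATTCC was in 3 windows (3.33%, against 5.42% of all), the POU motif ATGCAAAT in 2 (2.22%, against 2.79%) and the SOX motif ACAATGG in 1 (1.11%, against 4.59%). Of the 9 motifs, all but TTGGCA had an interval over the 90 windows that included the share of all windows. The interval of TTGGCA began at 20.8%, just above the 20.2% of all windows. Within the classes of E60 alone, of E60 and E80 alone and of all stages, its interval included the share of the class. Over whole regions the interval of the MEIS motif (42.2%, interval 31.9 to 53.1) also lay just above the share of all regions, 31.8%. NFI regions were wider, with a median of 634 bp against 475 bp for all regions, and width was not adjusted for. A match is a string of letters and not a bound site.

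Among all loci, an absence of late-only regions was uncommon at this size. Of 902 loci with at least 10 regions, 141 (15.6%) had no late-only region. Of 357 with at least 16 regions, the number at NFIC, 27 had none (7.56%), and all 4 NFI genes were among these 27. Among the 65 with at least 28 regions, NFIA, NFIX and CELF4, which encodes a neuronal RNA-binding protein, were the ones with none. By the excess of early-only over late-only regions NFIA ranked 5, NFIX 7, NFIB 22 and NFIC 934 of 16325 loci, a rank that favours loci with many regions. By the share of E60-alone regions NFIB ranked 56, NFIA 79, NFIX 153 and NFIC 758 of the 902 loci, where the median share was 17.9%.

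**Figure D5:**
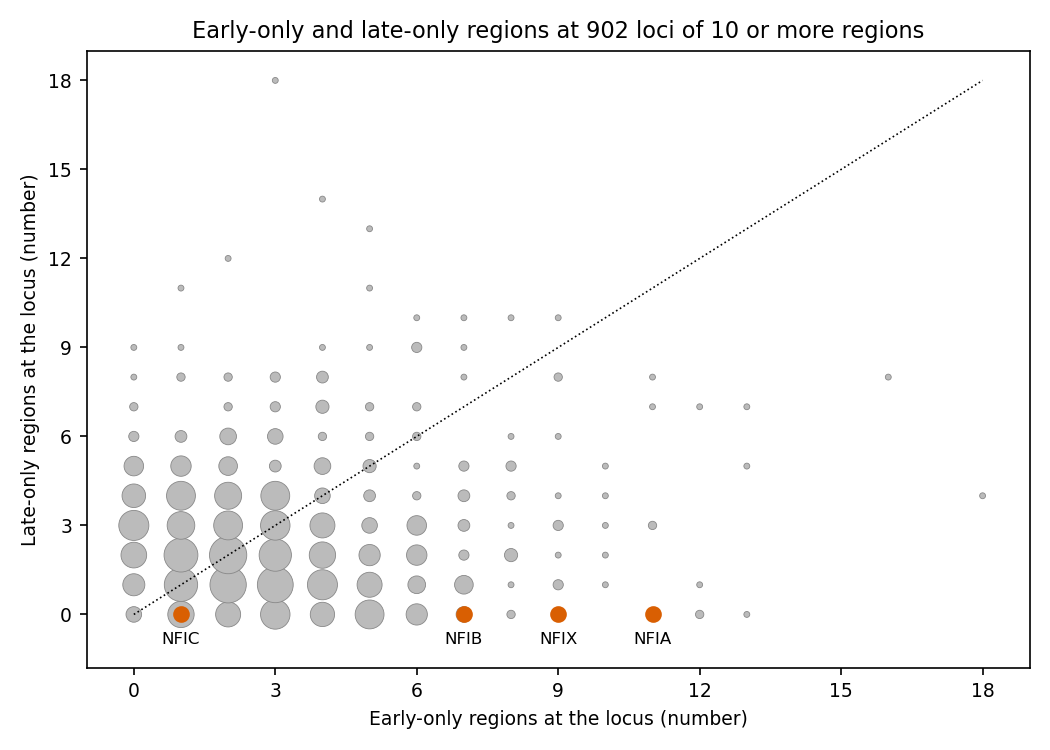
Number of early-only regions (x axis) and late-only regions (y axis) at the 902 loci of 10 or more regions, with circle area proportional to the number of loci and a dotted line of equal numbers. The NFI genes, in orange, lie on the x axis at 11 (NFIA), 9 (NFIX), 7 (NFIB) and 1 (NFIC).

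NFIA, NFIB and NFIX resembled each other in their mix of stages, and NFIC stood apart from NFIA and NFIB. Likeness was the cosine similarity of the counts over the 15 combinations of stages. It was 0.977 for NFIA with NFIB, 0.971 for NFIA with NFIX and 0.956 for NFIB with NFIX. For NFIC it was 0.837 with NFIX, 0.713 with NFIA and 0.679 with NFIB. The median over the other 901 loci of 10 or more regions was 0.772 for NFIA, 0.756 for NFIB, 0.796 for NFIC and 0.833 for NFIX. The loci most like NFIA were NFATC1 (0.997), a calcineurin-dependent factor gene, PHACTR1 (0.990) and MEGF10 (0.988), a phagocytic receptor gene. For NFIB they were MEGF10 (0.986), PLXNA1 (0.986), a semaphorin receptor gene, and GPM6B (0.984). For NFIX they were MAP2 (0.996), a neuronal microtubule protein gene, ATP10A (0.989) and TCF4 (0.986), a bHLH factor gene. For NFIC they were LOC709083 (0.986), TEAD1 (0.986), a Hippo pathway factor gene, and RXRA (0.983), a retinoid receptor gene. These are descriptions over 4 cultures.

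The partners and targets of NFI factors held as many early-only as late-only regions. In a list of 22 such genes there were 12 of each among 108 regions, against 16.8% early-only and 15.6% late-only of all regions. More early-only regions were present at 4 of the 22 loci, against 19.6% of all loci, more late-only regions at 5, against 17.8%, and equal numbers at 13. The median difference was 0 for the list and for all loci. INSC, which orients the spindle of dividing progenitors, had 4 early-only regions and none that was late-only. NOTCH1, the receptor of the signal that maintains radial glia, had 3 and 1, and GFAP, an astrocyte filament gene that NFI factors activate, had 2 and 0. BBX, an HMG-box factor gene, had 1 and 5, and TNC, which encodes a matrix protein of the radial glial niche, had 0 and 2. SOX9, which acts with NFIA, had 3 regions, of which 3 were called at E60 and at E80 and 2 at E50 and at E85. Promoters of the 22 genes were called for 16 at E50, 18 at E85, 21 at E60 and 21 at E80. Over all protein-coding genes the shares at these stages were 44.3%, 53.0%, 64.7% and 63.2%.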

How the data were processed

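The study measured chromatin accessibility with the Omni-ATAC protocol, per the labels. Tools in the submitters' processing notes are SAMtools 1.15, Bowtie2 2.5.1 and cutadapt 4.4, with the build rheMac10. How peaks were called and whether reads were offset for Tn5 is not given in the sources used here. From the deposited table (112696 merged regions, no header line) positions, widths and peak names were used. Peak names carry stage codes and the tag nativeFiltered. Another 40338 regions hold lifted peaks alone and were left out, and lifted peaks can widen a stage region. The table has 8 columns of values that no label ties to a library; they were not used, so depth is unknown here and the planned count test was not run.

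Coordinates are 1-based, since the deposited widths equal end minus start plus 1. Gene models (21122 protein-coding genes, 16325 loci with a region) and DNA came from the Mmul_10 assembly, whose sequence names and lengths fitted the table. Regions within 1000 bp of a start of a protein-coding or lncRNA transcript are promoters, all others distal. A region belongs to a locus if it overlaps it by 1 base or more. Named were the members, leading genes of the partner list, and the 3 loci most like each member. The members and lists were chosen with earlier results of these data known. Alternatives changed locus bounds, assignment, unit, width, promoter window, motif window and the cultures used. Motif and locus functions were tested on simulated data. Python 3.11.15, pandas 2.3.3, NumPy 2.4.6, SciPy 1.17.1, pysam 0.24.0 and matplotlib 3.10.9 were used.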

Additional observations from a re-analysis of the deposited data

Results flagged for a closer look

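Beside the 90 regions with a stage peak, the NFI loci held 53 regions with lifted peaks alone, which enter no comparison above. They made up 37.1% of the 143 regions at these loci, close to the 35.8% over the whole table. NFIA had 24 of them, NFIB 16, NFIC 5 and NFIX 8. Their median width was 316 bp. By the codes in the peak names, 46 held a peak of the set H23, 36 of H14, 3 of H22 and 1 of H16, and the labels do not define these sets.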

How the results depend on the processing

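With 1 culture per stage the results rest on single peak sets, and read depth is not known here. Late-only regions at the NFI loci stayed at 0 with the gene body alone, with 50 kb added on both sides, with region centres, peaks, narrow regions or regions without lifted peaks, and without the E80 or the E85 culture. Without the E50 culture there was 1. Late-only regions made up 18.8% of all regions of at most 1 kb, of which 68 lay at the NFI loci. They made up 29.9% of all regions without lifted peaks, of which 17 lay at the NFI loci. The 122 regions with 50 kb added were set against 15.6% of all regions. Late-only regions made up 16.9% of all regions without E50, 14.3% without E85 and 2.37% without E80. They were thus rare at any locus without E80, and little is read from the 0 there. The early-only result rested on E60: without that culture there were 0 early-only and 40 late-only regions, against 0.410% and 57.6% of all regions. NFIA, NFIB, NFIC and NFIX each had 0 early-only ones then. Without the E80 culture 56 were early-only (against 46.7% of all regions), and without E85 30 (against 18.3%). With 50 kb on both sides there were 122 regions, with 34 called at E50, 53 at E85 and 3 at E80 and not E60 (27.9%, 43.4% and 2.46%, against 26.0%, 40.1% and 14.9% of all regions). Of these 122, 30 were early-only (24.6%, against 16.8%) and 90 were called at E80 (73.8%, against 80.3%). Both shares lay nearer to those of all regions than the 31.1% and 66.7% of the 90 regions. Of the 17 regions without lifted peaks, 1 (E50), 17 (E60), 6 (E80) and 2 (E85) were called, against 8.97%, 68.4%, 73.7% and 19.8% of all such regions. Of these 17, 10 were early-only (58.8%, against 22.5% of all such), 11 at E60 and not E80 (64.7%, against 23.0%) and 0 the other way (against 28.3%). Of the 68 regions of at most 1 kb, 7 were called at E50, 39 at E80, 16 at E85 and 0 at E80 and not E60, against 16.7%, 77.1%, 31.2% and 17.9% of all such regions. Promoter regions of at least 65% GC numbered 6, all at NFIC and NFIX. E60 called 6 of them, E80 5, E50 0 and E85 0, against 96.5%, 89.7%, 48.4% and 64.2% of all such promoter regions. The bound was set after the calls were seen. It lies between a region with calls at all stages (64.3% GC) and one without (65.2%), so nothing is read from these counts. Motifs searched over whole regions were found in 44.4% (TTGGCA), 17.8% (homeobox), 35.6% (E-box), 6.67% (SOX) and 42.2% (MEIS) of NFI regions, against 32.0%, 12.7%, 39.0%, 7.95% and 31.8% of all regions. These shares were not adjusted for the greater width of NFI regions. Curated transcripts alone gave no value, since none of the 4 genes has one in this annotation, and leaving out single libraries was not run. No paired analysis was possible because no value could be tied to a library.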

Other observations

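E60-alone regions stood next to each other at several places, with no region of another stage between them. At NFIA there were 3 runs of 3 such regions, spanning 2861, 4399 and 20723 bp. In the longest of them 2 regions overlapped another annotated gene, LOC106998956, as did the neighbouring NFIA region called at E60 and E80. NFIB had a run of 3 over 46.3 kb and a pair over 13.9 kb, and NFIX had pairs over 3.44 and 11.5 kb. NFIC had none. These runs were noticed in the data and were not compared with other loci.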
